A study of Mus musculus with 12 samples.

Results

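The hair matrix transcription factors described here are 10 genes, Msx1, Msx2, Dlx1, Dlx2, Dlx3, Foxn1, Foxq1, Gata3, Ovol1 and Cux1, of the 53379 gene IDs in the count tables. They were taken by name, after the Ensembl IDs had been matched to symbols with GENCODE mouse release M21. The 12 samples, in 4 groups of 3, are whole-skin RNA from mice aged 3 months, of the strain given as C57BL/6 & B6D2. All mice carried Prss56Cre and the R26tdTom reporter. Control mice had no other listed allele, and Nf1-KO mice carried Nf1flox/- in addition, a floxed allele over a null allele, so that cells without Cre also have the null allele. The series title places the knockout in boundary cap cells, an embryonic source of Schwann cells, and whole skin holds many other cells. In each genotype skin was taken uninjured or 14 days after injury. The study compared injured with uninjured skin in both genotypes.

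The hair matrix is the group of dividing epithelial cells at the base of a growing follicle, around the dermal papilla. Its daughters leave upwards and become the inner root sheath and the cortex, cuticle and medulla of the hair shaft. In a resting follicle this compartment is absent and is rebuilt when a new growth phase (anagen) begins. WNT signals through LEF1, BMP signals, Sonic hedgehog and Notch act on these cells, and transcription factors of the homeodomain, forkhead, GATA and OVO families act below them. Several of the 10 factors are also made outside the follicle, among them Gata3, Ovol1 and Dlx3 in the differentiating layers of the epidermis and Gata3 in T cells and innate lymphoid cells.

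Library totals ran from 8817013 to 16809687 counts. Injured and uninjured libraries differed in ways other than injury. Xist, which coats the silenced X of females, had 0.709 to 2.95 raw CPM (counts relative to the total of the library) without injury and 436 to 627 with injury, while the Y-linked Ddx3y had 68.2 to 93.3 and at most 0.0595. Sex and skin state therefore cannot be told apart in any injury comparison. Background, read from 1454 olfactory and vomeronasal receptor genes, was 0.0944 to 0.332 raw CPM per kb of exon without injury, against 0.00224 to 0.0531 with injury, and was highest in control uninjured libraries 1 and 2. Nf1 read 8.14 to 17.2 raw CPM over all libraries and did not differ between genotypes by edgeR's quasi-likelihood test (log2 fold change -0.31, adjusted p = 0.884, in uninjured skin and -0.11, adjusted p = 0.989, in injured skin), so whole-skin Nf1 does not check the genotype labels. Prss56 was barely detected, with 1 to 12 counts in each uninjured and 0 to 9 in each injured sample.

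The 20 measured hair shaft and inner root sheath structural genes (hair keratins, inner root sheath keratins and trichohyalin) served to check the skin for hair production. They mark the layers that the daughters of matrix cells become, not the matrix cells themselves. Their summed level was 28.9 to 116 CPM over the uninjured libraries, against 12361 to 38974 CPM over the injured ones, and all 20 rose with injury in both genotypes. CPM here and below is scaled by TMM, which corrects library totals for differences in composition. In whole skin, fewer cells of a type and less RNA per cell cannot be told apart, so a higher level of a factor below is a level per unit of skin RNA. The labels number 3 samples per group without saying that they are separate animals, so p-values measure the spread between these samples.

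With injury, 7 of the 10 factors rose and 1 fell in control skin, and the same 7 rose and the same 1 fell in Nf1-KO skin. Msx1 and Msx2 rose most, by 11.96-fold to 25.3-fold, followed by the 3 Dlx genes by 4.23-fold to 8.10-fold, and Foxn1 and Cux1 rose by 1.71-fold to 2.48-fold. After background subtraction Dlx1 did not rank below Msx2, with log2 fold changes of 4.16 and 3.50 against 3.91 and 3.50 for Msx2. Gata3 fell by 1.84-fold and 2.29-fold. Foxq1 and Ovol1 did not pass the test in either genotype. A gene was called at an adjusted p under 0.05 (edgeR, quasi-likelihood F test, Benjamini-Hochberg over 23635 genes). Change was common in these data: in control skin 55.3% of all tested genes were called, 22.8% higher and 32.5% lower, and in Nf1-KO skin 37.4%, 19.1% higher and 18.4% lower. The share of factors called higher, 7 of 10, stood above those shares, and a single lower call did not. The median log2 fold change of the 10 factors was 1.56 in control and 1.74 in Nf1-KO skin, against -0.21 and -0.09 over all tested genes. For 8 of the 10 factors the injured and uninjured libraries of a genotype did not overlap, as for 62.4% of all tested genes in control and 51.6% in Nf1-KO skin. Markers of other cells rose as well, with 10 of 12 genes of cycling cells, 6 of 6 of dermal fibroblasts and 7 of 7 of melanocytes called higher in each genotype, and no gene of these lists was at 0 counts in a group. Cycling-cell genes summed to 238 to 383 CPM uninjured and 564 to 793 CPM injured, fibroblast genes to 999.7 to 3397 and 5873 to 17960 CPM, and melanocyte genes to 24.6 to 120 and 512 to 1624 CPM. The share of ribosomal RNA-like counts was 0.931% to 2.26% uninjured and 1.75% to 4.21% injured. The part of these differences in the changes of the factors was not tested.

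**Figure D1:**
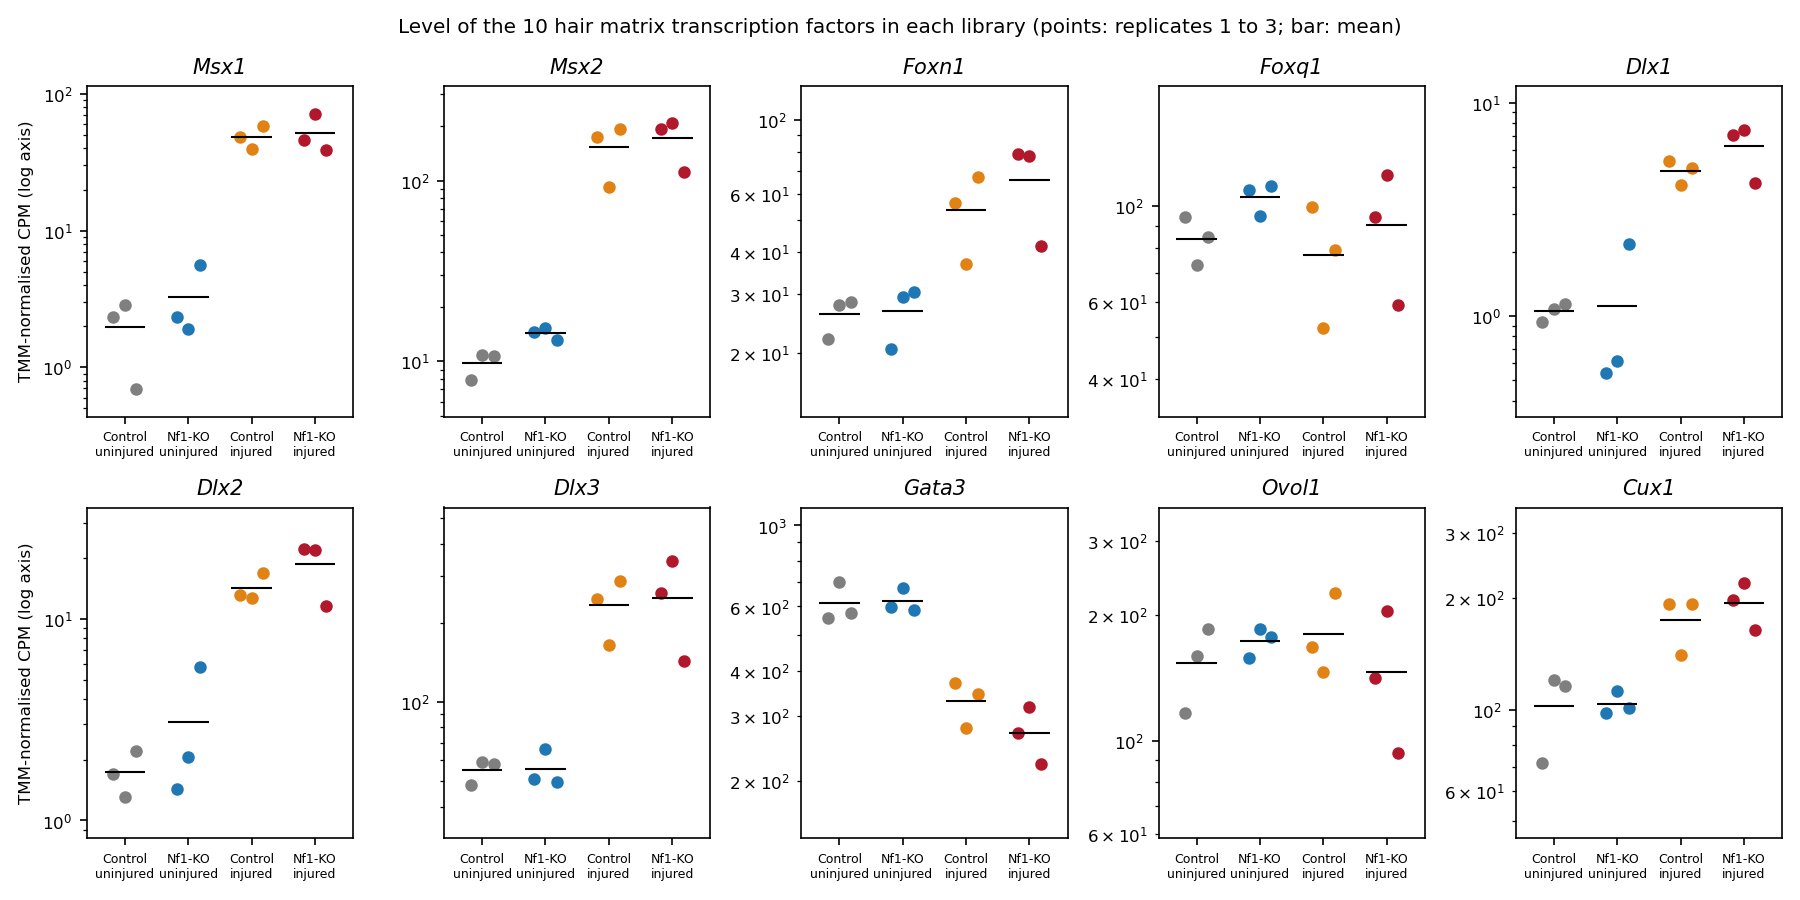
Level of each of the 10 factors in TMM-normalised CPM (log axis, a separate range for each panel) in the 4 groups. Points are the 3 libraries of a group in the order of their numbers, bars are means. The injured points of Msx1, Msx2, Dlx1, Dlx2, Dlx3, Foxn1 and Cux1 lie above all uninjured points of the same genotype, those of Gata3 lie below, and those of Foxq1 and Ovol1 overlap.

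Of the RefSeq promoter table (GRCm38.p6), 7 of the 10 factors had an entry, and Dlx3, Foxq1 and Ovol1 had none. Of these 7, only the 250 bases before the RefSeq start of Msx1, Dlx2 and Foxn1 overlap no annotated exon. They are shown because these 3 factors rose together with injury and their upstream sequence is not exonic in the annotation. Each is written 5′ to 3′ on the gene's own strand, and capitals mark the searched motifs that were found.
Msx1, chr5:37824586-37824835, minus strand: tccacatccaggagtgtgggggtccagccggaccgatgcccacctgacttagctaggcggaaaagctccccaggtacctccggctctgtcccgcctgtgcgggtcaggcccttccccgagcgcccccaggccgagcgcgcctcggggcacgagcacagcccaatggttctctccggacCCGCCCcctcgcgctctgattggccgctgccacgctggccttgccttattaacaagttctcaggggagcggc
Dlx2, chr2:71546755-71547004, minus strand: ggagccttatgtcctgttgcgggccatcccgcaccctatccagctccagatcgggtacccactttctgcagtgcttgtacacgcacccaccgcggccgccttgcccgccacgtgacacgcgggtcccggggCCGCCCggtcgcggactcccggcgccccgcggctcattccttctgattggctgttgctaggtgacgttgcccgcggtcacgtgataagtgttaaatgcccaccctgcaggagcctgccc
Foxn1, chr11:78386609-78386858, minus strand: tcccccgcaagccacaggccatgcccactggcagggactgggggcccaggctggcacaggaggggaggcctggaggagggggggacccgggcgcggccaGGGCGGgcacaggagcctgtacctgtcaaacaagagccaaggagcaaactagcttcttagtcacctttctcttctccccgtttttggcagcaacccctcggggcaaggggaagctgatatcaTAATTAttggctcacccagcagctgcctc
The motifs named next were searched on both strands, and none contains another. The GC box, spelled GGGCGG, occurs in each of the 3 windows once, on the other strand for Msx1 and Dlx2, and is held by 33% of 32536 mouse promoters of this length. A homeodomain core, spelled TAATTA in one form and, with its last base exchanged, TAATTG in the other, occurs once upstream of Foxn1 and is held by 11.3% of all promoters. The LEF/TCF motif CTTTGA is held by 13.9% of all promoters and by none of the 3. The GATA motif AGATAA is held by 9.97% of all promoters and by none of the 3. Only this spelling was searched, and the Dlx2 window holds GATAA after a T. The TATA box TATAAA is held by 12.3% of all promoters and by none of the 3. The windows are GC-rich, at 68.0%, 66.4% and 63.2% for Msx1, Dlx2 and Foxn1, against a median of 52.4% over all promoters.

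Msx1 and Msx2 encode homeodomain repressors, which act below BMP signals in many epithelia, and loss of Msx2 in mice gives defective hair shafts and cyclic hair loss. Msx1 (chr5:37820485-37824583) read 2.35, 2.84 and 0.694 CPM in control uninjured libraries 1 to 3 and 48.5, 39.3 and 58.1 CPM in the control injured libraries. In Nf1-KO skin Msx1 read 2.33, 1.92 and 5.60 CPM uninjured and 46.2, 71.5 and 39.0 CPM injured. Every injured library was thus several times above every uninjured one. Msx1 rose 25.3-fold in control (log2 fold change 4.66, SE 0.49, adjusted p = 2.03e-05) and 16.0-fold in Nf1-KO skin (SE 0.47 on the log2 scale, adjusted p = 4.12e-05). The uninjured level rested on few counts, 11 to 62 per library. Per kb of exon it was 2.42 to 15.3 times the receptor-gene background of the same library. Part of the uninjured readings may thus be background, which was lower in injured libraries. Without Nf1-KO uninjured library 3, the highest of the uninjured ones, the Nf1-KO log2 value was 4.65.

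Msx2 (chr13:53466884-53473074) was higher than Msx1 in every library. Its level was 7.90, 10.8 and 10.7 CPM in control uninjured and 174, 91.9 and 193 CPM in control injured skin. In Nf1-KO skin it was 14.5, 15.3 and 13.1 CPM uninjured and 193, 208 and 112 CPM injured. Control injured library 2 and Nf1-KO injured library 3 were the lowest of the injured libraries and still stood well above all uninjured ones. The rise was 15.5-fold in control (log2 fold change 3.96, SE 0.30, adjusted p = 3.12e-07) and 11.96-fold in Nf1-KO skin (3.58, SE 0.30, adjusted p = 4.49e-07).

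The Dlx genes encode homeodomain activators related to Drosophila Distal-less and lie in neighbouring, convergently transcribed pairs. Dlx1 (chr2:71528113-71533981) and Dlx2 (chr2:71543408-71546754) are 9426 bases apart and are best known from forebrain interneurons and the jaw. Dlx3 (chr11:95120119-95125296), which lies 15150 bases from Dlx4, is needed for hair shaft and inner root sheath formation and acts upstream of Hoxc13 and Gata3 in the matrix. All 3 rose with injury in both genotypes, and they differed widely in level.

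Dlx3 read 48.4, 59.2 and 58.0 CPM in control uninjured libraries and 247, 165 and 288 CPM in control injured libraries. In Nf1-KO skin Dlx3 read 51.0, 66.3 and 49.5 CPM uninjured and 261, 343 and 144 CPM injured. The uninjured libraries lay close together, and the injured ones spread further, with the same 2 lowest libraries as for Msx2. The log2 fold change was 2.08 (SE 0.29, adjusted p = 5.17e-05) in control and 2.16 (SE 0.29, adjusted p = 3.44e-05) in Nf1-KO skin.

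Dlx2 rose from 1.69, 1.30 and 2.21 CPM to 13.2, 12.7 and 16.8 CPM in control skin (log2 fold change 3.02, SE 0.44, adjusted p = 9.26e-05). In Nf1-KO skin it rose from 1.43, 2.07 and 5.78 CPM to 22.3, 22.1 and 11.5 CPM (log2 fold change 2.60, SE 0.43, adjusted p = 0.000245). As for Msx1, Nf1-KO uninjured library 3 was the highest uninjured library, and without it the Nf1-KO value was 3.42. Per kb of exon the uninjured readings of Dlx2 were 2.02 to 17.2 times the background of the same library, so part of them may be background. Dlx1 was the least abundant factor, with 0.941, 1.07 and 1.14 CPM in control uninjured and 5.33, 4.12 and 4.94 CPM in control injured libraries. In Nf1-KO skin Dlx1 had 0.538, 0.613 and 2.17 CPM uninjured and 7.05, 7.48 and 4.22 CPM injured. Its uninjured libraries held only 6 to 24 counts, and per kb of exon 4 of the 6 were below the receptor-gene background of the same library. The injured libraries were all above it, by 13.1 times or more. Dlx1 rose 4.51-fold in control (log2 fold change 2.17, SE 0.47, adjusted p = 0.00143) and 5.67-fold in Nf1-KO skin (SE 0.48 on the log2 scale, adjusted p = 0.000852). The log2 fold change was 4.16 and 3.50 after subtraction of each library's background, and 3.44 in Nf1-KO skin without uninjured library 3. Dlx1 shares 335 exonic bases with the antisense gene Dlx1as, which reads without strand cannot separate and which was not called in either genotype (log2 fold change -0.58 and 0.13).

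Foxn1 and Foxq1 encode forkhead factors of the differentiating hair. Loss of Foxn1 makes nude mice, whose hairs form but fail to emerge and which lack a thymus, and loss of Foxq1 gives satin mice with an abnormal medulla. Foxn1 (chr11:78357577-78386558) read 22.0, 27.8 and 28.4 CPM in control uninjured and 56.3, 37.0 and 67.2 CPM in control injured libraries. In Nf1-KO skin Foxn1 read 20.5, 29.3 and 30.4 CPM uninjured and 79.0, 77.7 and 41.7 CPM injured. The gap between the groups was narrow, with control injured library 2 at 37.0 CPM against 28.4 CPM in the highest control uninjured library. Foxn1 rose by 1.04 (SE 0.26, adjusted p = 0.00388) and by 1.31 (SE 0.27, adjusted p = 0.00137) on the log2 scale.

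Foxq1 (chr13:31556134-31560976) read 94.5, 73.3 and 84.6 CPM in control uninjured and 99.4, 52.4 and 79.0 CPM in control injured libraries. In Nf1-KO skin it read 109, 94.9 and 111 CPM uninjured and 94.4, 118 and 59.1 CPM injured. Injured libraries lay on both sides of the uninjured ones. The log2 difference was -0.13 (95% confidence interval -0.66 to 0.40) in control and -0.21 (-0.74 to 0.32) in Nf1-KO skin, and the rises of the Msx and Dlx genes lie outside both intervals. The Foxq1 exon shares 3200 bases with A530084C06Rik on the opposite strand, a gene that was itself called lower with injury (log2 fold change -0.80, adjusted p = 0.0341, and -0.95, adjusted p = 0.0221). With unstranded reads the counts of these 2 genes cannot be told apart in the shared stretch.

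Gata3 encodes a zinc finger factor that specifies the inner root sheath and also acts in epidermal differentiation and in T cells and innate lymphoid cells. It was the most abundant of the 10 factors in uninjured skin and the only one that fell. Gata3 (chr2:9857078-9890034) read 557, 700 and 577 CPM in control uninjured and 370, 279 and 346 CPM in control injured libraries. In Nf1-KO skin Gata3 read 598, 673 and 588 CPM uninjured and 270, 319 and 222 CPM injured. The lowest uninjured library, at 557 CPM, was well above the highest injured one, at 370 CPM. Gata3 fell by 0.88 (SE 0.21, adjusted p = 0.00236) and by 1.20 (SE 0.21, adjusted p = 0.000419) on the log2 scale. The antisense gene Gm13256, which shares 155 exonic bases with Gata3, fell as well (log2 fold change -1.89 in control and -2.15 in Nf1-KO skin).

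Markers of the other sites where Gata3 is made were read beside it. Suprabasal epidermis genes, 12 in number, summed to 26548 to 42984 CPM in uninjured and 12514 to 25515 CPM in injured libraries, with 6 of 12 called lower and 1 higher in control and 7 lower and 0 higher in Nf1-KO skin. The 10 genes of T cells and innate lymphoid cells summed to 43.9 to 94.1 CPM uninjured and 43.0 to 77.5 CPM injured, with 3 called lower and 2 higher in each genotype and a median log2 fold change of 0.08 in control and -0.18 in Nf1-KO skin. These sums overlapped between injured and uninjured skin. Those 3 lower calls became 0 in control skin without control uninjured libraries 1 and 2. In Nf1-KO skin they became 1 without any 1 control uninjured library, Nf1-KO uninjured library 1 or 2, control injured library 2 or 3, or Nf1-KO injured library 1. No gene of either list was at 0 counts in a group. The part of either list in the fall of Gata3 was not tested.

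Ovol1 encodes a zinc finger repressor that acts below WNT signals in the hair shaft and in suprabasal epidermis. Ovol1 (chr19:5549136-5560646) read 117, 159 and 185 CPM in control uninjured and 168, 146 and 225 CPM in control injured libraries. In Nf1-KO skin it read 158, 185 and 177 CPM uninjured and 141, 204 and 94.0 CPM injured. The groups overlapped in both genotypes, with log2 differences of 0.23 (95% interval -0.32 to 0.78, adjusted p = 0.48) and -0.24 (-0.79 to 0.31, adjusted p = 0.476). Gm31166, a pseudogene on the opposite strand that shares 690 exonic bases with Ovol1, rose by 1.00 on the log2 scale in control skin (adjusted p = 0.00236) and had 0.36 in Nf1-KO skin, where it was not called.

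Cux1 encodes a homeodomain protein with cut repeats that is made in the inner root sheath, and its mutants have curly whiskers and abnormal hair. It was made at a substantial level in every sample. Cux1 (chr5:136248135-136567490) read 71.7, 120 and 116 CPM in control uninjured and 193, 140 and 193 CPM in control injured libraries. In Nf1-KO skin Cux1 read 98.0, 113 and 101 CPM uninjured and 198, 220 and 165 CPM injured. The groups did not overlap, and the rise was the smallest of the 7, at 1.71-fold (log2 fold change 0.77, SE 0.22, adjusted p = 0.00704) and 1.87-fold (0.90, SE 0.22, adjusted p = 0.0047). The antisense gene Gm16599 shares 394 exonic bases with Cux1 and also rose (log2 fold change 1.02 and 1.21).

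**Figure D2:**
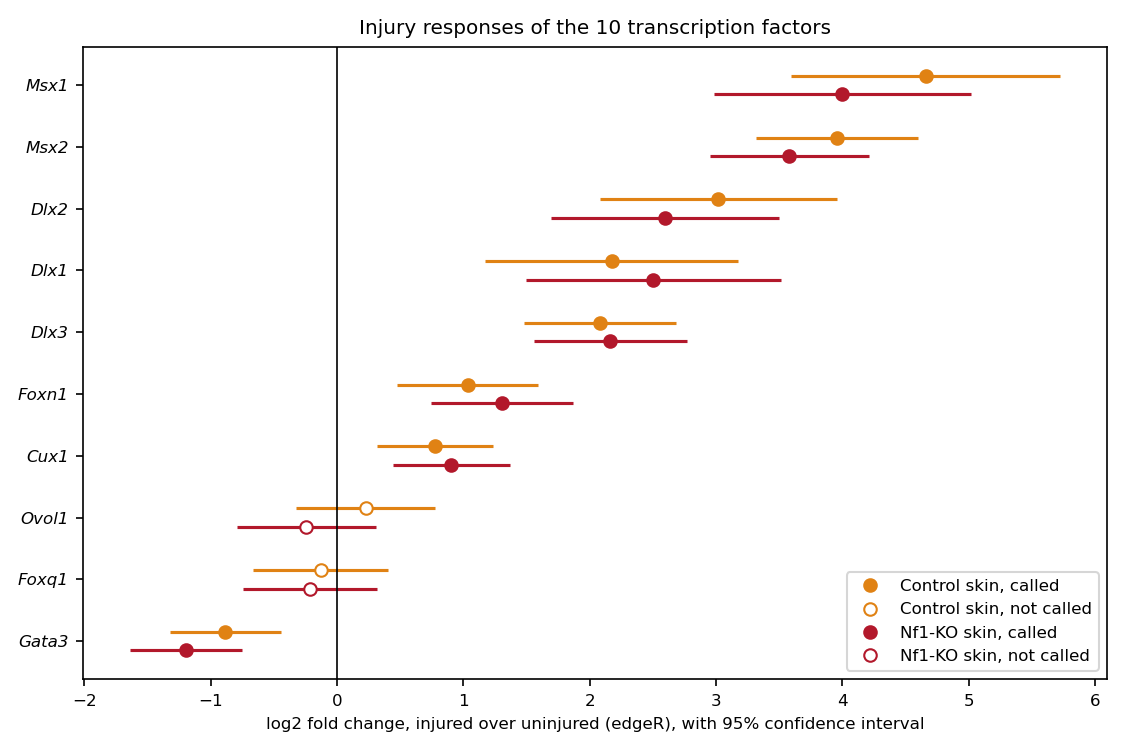
log2 fold change of injured over uninjured skin for each factor, with its 95% confidence interval, in control skin (orange) and Nf1-KO skin (red). Filled points were called at adjusted p under 0.05 and open points were not. Intervals of the 2 genotypes overlap for each of the 10 factors, from Msx1 at 25.3-fold and 16.0-fold higher down to Gata3 at 1.84-fold and 2.29-fold lower.

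The fit was also run without control uninjured libraries 1 and 2, those of highest background. It cannot tell their background from the loss of 2 of the 3 libraries of the group. Leaving out either library alone kept 8 of 10 factors called in control skin. With both left out, which leaves a single control uninjured library whose spread is assumed to be like that of the other groups, 4 of 10 factors were called instead of 8. Foxn1 (log2 fold change 0.91, adjusted p = 0.11), Dlx1 (2.07, adjusted p = 0.0583), Gata3 (-0.80, adjusted p = 0.0628) and Cux1 (0.60, adjusted p = 0.135) then missed the threshold with their direction unchanged. Msx1, Msx2, Dlx2 and Dlx3 were still called, with log2 fold changes of 6.11, 3.84, 2.68 and 2.01. Over all tested genes the calls in control skin fell from 55.3% to 23.9% in that fit.

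In neither skin state was a factor called between the genotypes. In uninjured skin 0 of 10 factors passed, with 7 of all 23635 genes (0.0296%) called, and in injured skin 0 of 10, with 0 genes (0%) called by edgeR. In injured skin 2532 genes had an unadjusted p under 0.05, DESeq2 called 124 and limma voom 1. DESeq2 and limma voom also called 0 of 10 factors in either state, and no factor had an unadjusted p under 0.05 in edgeR, as 8.34% of all genes had in uninjured and 10.7% in injured skin. Msx2 came nearest in uninjured skin, with 9.80 ± 1.64 CPM (SD, n = 3) in control and 14.3 ± 1.13 CPM (SD, n = 3) in Nf1-KO skin. Its groups did not overlap, and the log2 difference was 0.54 (95% interval -0.05 to 1.14, edgeR adjusted p = 0.645). Foxq1 was the other factor whose uninjured groups did not overlap, at 84.1 ± 10.6 and 105 ± 8.71 CPM (SD, n = 3 each), with a log2 difference of 0.32 (-0.21 to 0.85). Such a gap between 3 and 3 libraries was seen for 14.8% of all tested genes in uninjured skin, so 2 of 10 is close to that share. In injured skin no factor showed it, against 9.05% of all genes.

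The limits on a genotype difference varied with abundance. For Gata3 and Cux1 the interval ran from -0.42 to 0.46 and from -0.44 to 0.48 in uninjured skin, and from -0.73 to 0.14 and from -0.31 to 0.61 in injured skin. For the sparse Msx1, Dlx1 and Dlx2 the uninjured intervals were wide, from -0.32 to 1.84, from -1.01 to 1.12 and from -0.14 to 1.77, and a doubling lies within all 3. Nf1-KO uninjured library 3 was the highest of the 6 uninjured libraries for 5 factors (Msx1, Foxn1, Foxq1, Dlx1 and Dlx2), as for 27.3% of all genes. The same library had the highest uninjured sum of hair structural genes, 116 CPM against 28.9 to 61.0 in the others, and of melanocyte genes, 120 CPM against 24.6 to 38.3. Without it, the uninjured log2 difference of Dlx2 went from 0.81 to 0.02, that of Msx1 from 0.76 to 0.15 and that of Dlx1 from 0.06 to -0.85, none of them called. The part of these other genes in the values of the 5 factors was not tested.

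The injury responses of the 2 genotypes were also compared with each other, as the difference between them. By edgeR 0 of the 10 factors and 0 of the 23635 genes (0%) were called for it, while 2541 genes (10.8%) and 0 factors had an unadjusted p under 0.05. DESeq2 called 37 genes and limma voom 0, and both called 0 factors. The largest difference was that of Msx1, whose log2 rise was 0.66 smaller in Nf1-KO skin (difference -0.66, 95% interval -2.04 to 0.72, adjusted p = 0.72). For Foxn1, Dlx3 and Cux1 the differences were 0.27 (-0.51 to 1.06), 0.08 (-0.74 to 0.91) and 0.13 (-0.52 to 0.78). Without Nf1-KO uninjured library 3 the difference was -0.04 for Msx1, 1.25 for Dlx1 in place of 0.33, and 0.39 for Dlx2 in place of -0.42, none of them called.

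Some of the 6 injured libraries were low or high for most factors at once, and in others the factors differed. In Nf1-KO injured library 1, Dlx2 was at 0.49 and Ovol1 at -0.15 on the log2 scale relative to the injured mean. In control injured library 1, Gata3 was at 0.32 and Dlx2 at -0.27. Nf1-KO injured library 3 was among the lowest 2 of the 6 for 10 of 10 factors, as for 25.3% of all genes, and control injured library 2 for 8 of 10, as for 40.6%. Nf1-KO injured library 2 was among the highest 2 for 9 of 10 factors, as for 43.6% of all genes. The factors that did not rise with injury were low there too: Ovol1 was lowest in Nf1-KO injured library 3, at 94.0 CPM, Foxq1 in control injured library 2, at 52.4 CPM, and Gata3 in Nf1-KO injured library 3, at 222 CPM. The range between the lowest and the highest injured library was 1.57-fold for Cux1 and 2.40-fold for Ovol1.

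Some other marker sums were also lowest in control injured library 2 and Nf1-KO injured library 3, some were highest there and some neither. Hair structural genes summed to 19168, 14001 and 26451 CPM in control injured libraries and to 24471, 38974 and 12361 CPM in Nf1-KO injured libraries, lowest in the same 2 libraries. The 7 melanocyte genes, which mark the pigment cells of the growing bulb, summed to 891, 591 and 828 CPM and to 986, 1624 and 512 CPM, again lowest in those 2. The 6 genes of dermal fibroblasts were highest there, with 5873, 16584 and 11359 CPM in control and 10015, 9603 and 17960 CPM in Nf1-KO injured libraries. The 12 cycling-cell genes summed to 771, 564 and 793 CPM in control and to 675, 791 and 691 CPM in Nf1-KO injured libraries. Their sum was lowest in control injured library 2 and near the injured mean in Nf1-KO injured library 3. The 9 dermal papilla genes summed to 107, 99.9 and 127 CPM in control and to 86.2, 91.6 and 209 CPM in Nf1-KO injured libraries, highest in Nf1-KO injured library 3. That library also had the highest background of the injured libraries, 0.0531 raw CPM per kb. The part of these differences in the spread of the factors was not tested.

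**Figure D3:**
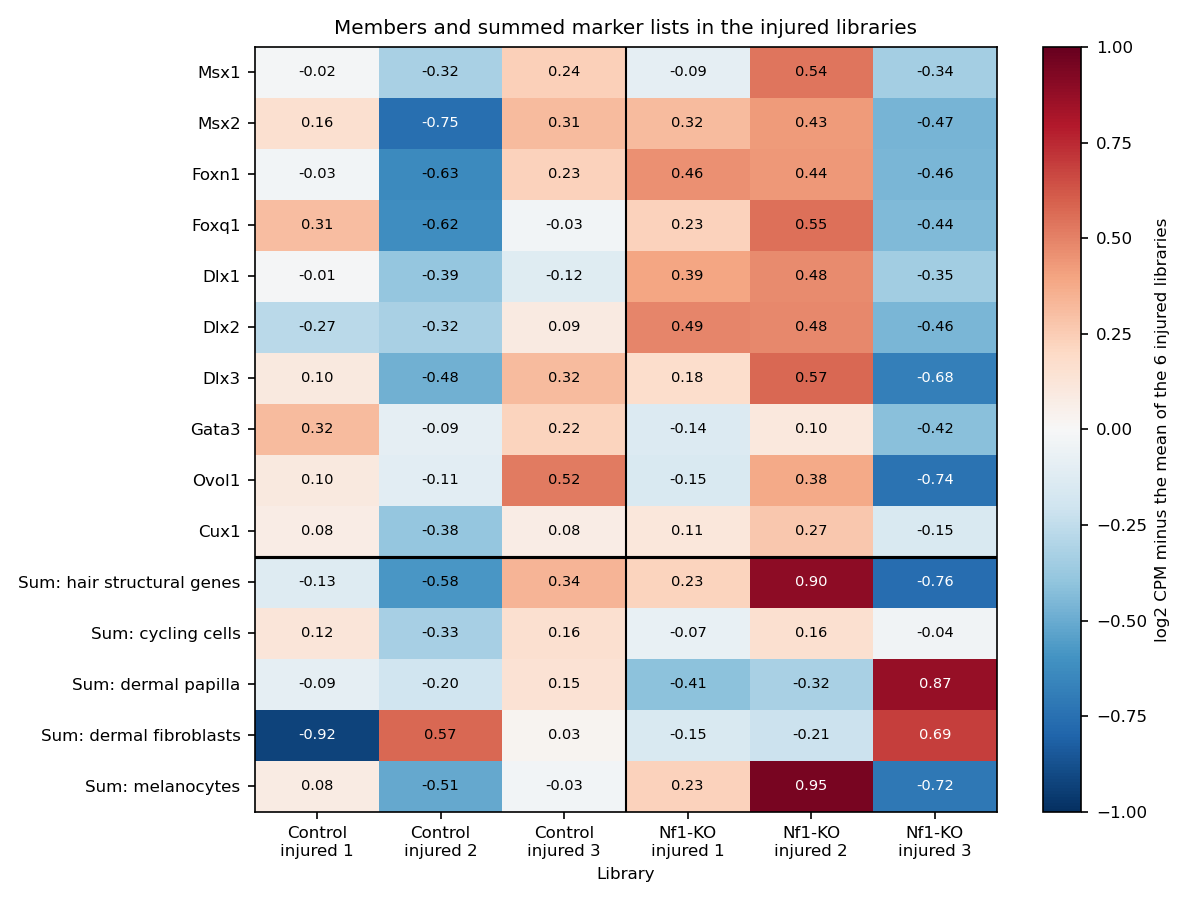
log2 CPM of each factor, and of the summed CPM of 5 marker lists below the line, minus its mean over the 6 injured libraries (blue lower, red higher, values printed in the cells). Control injured library 2 and Nf1-KO injured library 3 are blue for all 10 factors and for the sums of hair structural and melanocyte genes, and red for the sum of dermal fibroblast genes.

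Per kb of exon, which allows levels of different genes to be compared, the order of the factors changed with injury. In uninjured skin Gata3 was highest at a mean of 155 CPM per kb over 6 libraries, followed by Ovol1 at 46.9, Dlx3 at 21.2, Foxq1 at 19.5, Foxn1 at 8.21, Cux1 at 5.15 and Msx2 at 3.68. Msx1 and Dlx2 followed at 0.847 and 0.846 CPM per kb and Dlx1 came last at 0.200. Neighbours whose libraries overlapped were Dlx3 and Foxq1, Cux1 and Msx2, and Msx1 and Dlx2. In injured skin Dlx3 led at 92.5 CPM per kb (55.1 to 132), overlapping Gata3 at 75.7 (55.9 to 92.9), which stood above Dlx3 in control injured library 2 and Nf1-KO injured library 3. Gata3 also overlapped Msx2 at 49.4 (28.0 to 63.5), and Msx2 overlapped Ovol1 at 46.7 CPM per kb (26.9 to 64.6). Foxn1 at 18.6, Foxq1 at 17.3 and Msx1 at 16.3 overlapped one another and lay below Ovol1 in their whole range. Cux1 stood at 9.23, Dlx2 at 5.75 and Dlx1 at 1.02 CPM per kb, and of these Cux1 and Dlx2 overlapped. By means only, Msx2 went from the seventh to the third place and Dlx3 stood before Gata3. The exonic length of Cux1, 20024 bases over all annotated isoforms, is far above the 2607 to 5396 bases of the others and lowers its value per kb if only some isoforms are made. Of the 4843 exonic bases of Foxq1, 3200 are shared with A530084C06Rik on the opposite strand. How reads in that stretch were counted is not given, so the place of Foxq1 per kb is uncertain.

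**Figure D4:**
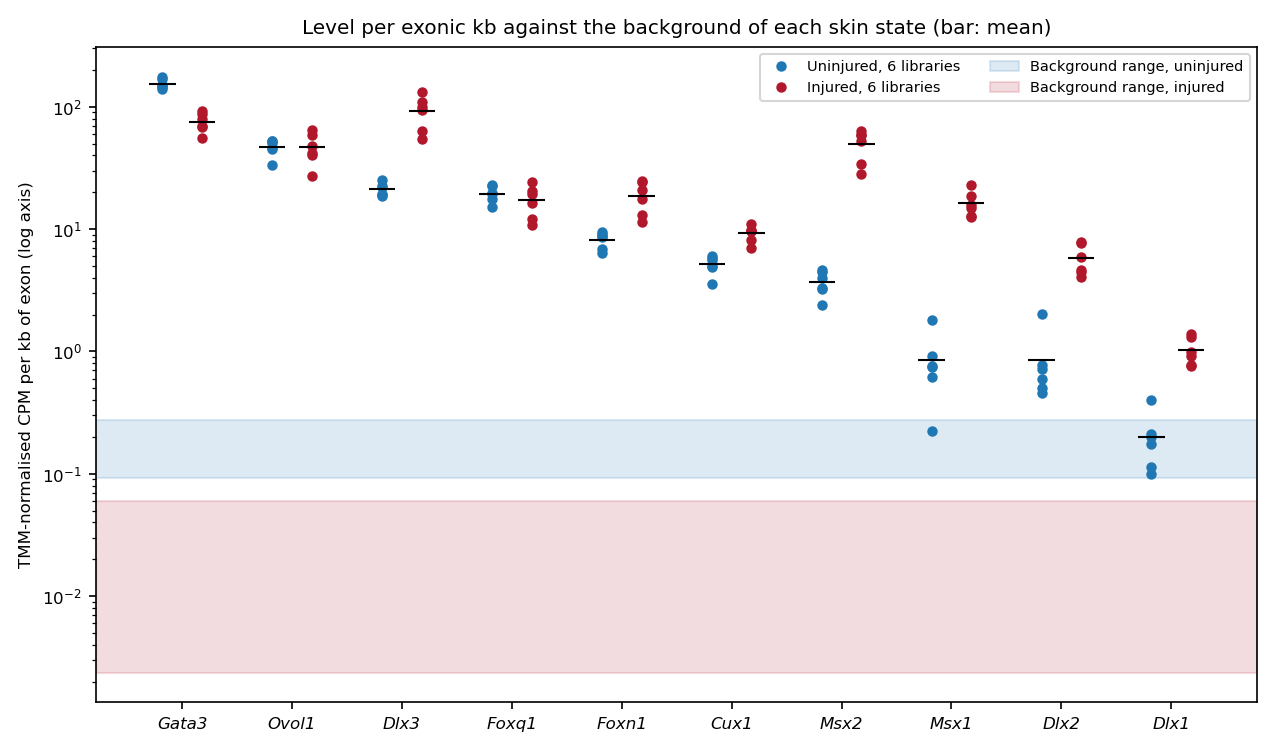
TMM-normalised CPM per kb of annotated exon (log axis) for the 10 factors, in the 6 uninjured (blue) and the 6 injured (red) libraries, with bars at the means. Shaded bands give the range of the receptor-gene background on the same scale, and the uninjured points of Dlx1 lie in or near the uninjured band while its injured points, 0.763 to 1.39 CPM per kb, lie above both.

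The direction with injury was mixed among the 15 listed relatives of the factors in the Msx, Dlx, Foxn, Gata, Ovol and Cux families. Of 13 that passed the filter (Foxn4 and Ovol3 did not), 2 rose, 9 fell and 2 were not called in control skin. In Nf1-KO skin 1 rose, 6 fell and 6 were not called. Over all tested genes 32.5% fell in control and 18.4% in Nf1-KO skin. Msx3, Dlx6, Gata4 and Gata5 are among the 13 and had few or no counts in injured skin. They passed the filter through the uninjured libraries, where background was higher, so a fall of these genes cannot be told apart from background. The median log2 fold change of the 13 relatives, with these genes included, was -0.92 in control and -1.33 in Nf1-KO skin. Gata4 and Gata5 were at 0 counts in control injured skin. Setting them to the bound given by 3 counts in the group could not move the control median, because both stayed below it. Dlx4, the neighbour of Dlx3, rose from 0.658, 1.61 and 0.757 CPM to 11.4, 8.36 and 11.3 CPM in control skin and from 0.806, 1.61 and 0.994 CPM to 12.1, 17.5 and 9.90 CPM in Nf1-KO skin. Its log2 fold change was 3.34 (SE 0.40) and 3.51 (SE 0.40), between those of Dlx2 and Msx2 in control skin. Dlx5, of the third Dlx pair, went the other way, from 13.1 ± 2.89 to 7.47 ± 0.740 CPM in control skin and from 15.6 ± 0.378 to 5.09 ± 0.602 CPM in Nf1-KO skin (SD, n = 3 each, log2 fold change -0.81 and -1.61).

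Foxn2 and Foxn3, relatives of Foxn1 that most tissues make, fell in both genotypes, Foxn2 by 1.23 and 0.86 and Foxn3 by 0.65 and 0.84 on the log2 scale. Cux2 fell from 5.79 ± 2.26 to 0.908 ± 0.285 CPM in control skin and from 5.03 ± 0.479 to 2.03 ± 1.55 CPM in Nf1-KO skin (SD, n = 3 each, log2 fold change -2.65 and -1.33). Msx3, Dlx6, Gata4 and Gata5 had 22 to 52 counts per uninjured group and 0 to 11 per injured group, where the background was also lower. After background subtraction 9 relatives passed the filter and 5 of them fell in control skin, as did 5728 of all 21284 genes tested. In Nf1-KO skin 3 of 14 relatives fell without Nf1-KO injured library 1, as did 2307 of all 25377 genes. Without Nf1-KO injured library 3, 10 of 14 relatives and 5959 of all 25325 genes fell. The count of the relatives thus moved in the same direction as that of all genes.

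Of 18 listed signals and receptors of the matrix, 5 rose, 4 fell and 9 were not called in control skin, and 6 rose, 5 fell and 7 were not called in Nf1-KO skin. For comparison with this and the other lists, 22.8% of all tested genes were called higher and 32.5% lower in control skin. In Nf1-KO skin the shares were 19.1% and 18.4%. The 5 higher and 4 lower calls of this list in control skin were close to those shares. Lef1, the DNA-binding partner of β-catenin in the matrix, rose from 7.74 ± 0.981 to 69.4 ± 19.6 CPM in control skin and from 9.61 ± 2.27 to 86.8 ± 33.0 CPM in Nf1-KO skin (SD, n = 3 each, log2 fold change 3.17 and 3.18). Of the hedgehog pathway, named after the values were seen, the ligand Shh rose by 3.16 and 3.77, the receptor and target Ptch1 by 1.69 and 1.39 and the target Gli1 by 2.37 and 1.73 on the log2 scale. The uninjured level of Shh rested on 30 counts in the control and 21 in the Nf1-KO group, so part of it may be background. Fgfr2, the receptor of FGF7 and FGF10 on keratinocytes, fell by 1.59 and 1.77, and the Notch ligand Jag2 by 1.32 and 1.05. Wnt10a fell by 0.60 in control and by 1.46 in Nf1-KO skin. The median log2 fold change of the list was 0.22 and 0.39, against -0.21 and -0.09 over all genes. The number that fell in Nf1-KO skin was 3 in place of 5 without control uninjured library 1 or 2, Nf1-KO uninjured library 3, any 1 of the control injured libraries, or Nf1-KO injured library 1 or 3, and in control skin 2 in place of 4 without control uninjured library 2.

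Of 12 other follicle transcription factors, 11 passed the filter (Foxi3 did not), and 7 rose, 1 fell and 3 were not called in control skin, with 5, 1 and 5 in Nf1-KO skin. Foxe1, a forkhead factor of the follicle epithelium, rose from 0.647 ± 0.314 to 55.7 ± 16.9 CPM in control and from 0.923 ± 0.445 to 70.0 ± 30.3 CPM in Nf1-KO skin (SD, n = 3 each). Its log2 fold change of 6.36 and 6.25 exceeded those of all 10 factors. The uninjured level of Foxe1 rested on 27 counts in the control and 32 in the Nf1-KO group, so part of it may be background and the size is uncertain. Hoxc13, which controls hair keratin genes, rose by 4.59 and 3.60, Runx1 by 2.01 and 1.72 and Trps1 by 1.95 and 1.81. The list's median log2 fold change was 1.02 and 0.76. Without control uninjured libraries 1 and 2, 4 of 12 rose in control skin, and without Nf1-KO injured library 2, 3 fell in Nf1-KO skin in place of 1.

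Of 13 stem cell and epidermal transcription factors, 5 rose and 5 fell in control skin, and 3 rose and 7 fell in Nf1-KO skin, with a median of -0.42 and -0.67. Tcf7l1, a stem cell factor, rose by 2.45 and 2.16, Foxc1 by 1.60 and 1.10 and Tfap2a by 2.03 and 1.03 on the log2 scale. Trp63, the master regulator of basal epidermis, fell by 1.55 and 1.65, and Klf5 by 0.70 and 1.17. Without control uninjured libraries 1 and 2, only 3 rose in control skin, and without Nf1-KO uninjured library 3, 5 rose in Nf1-KO skin.

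**Figure D5:**
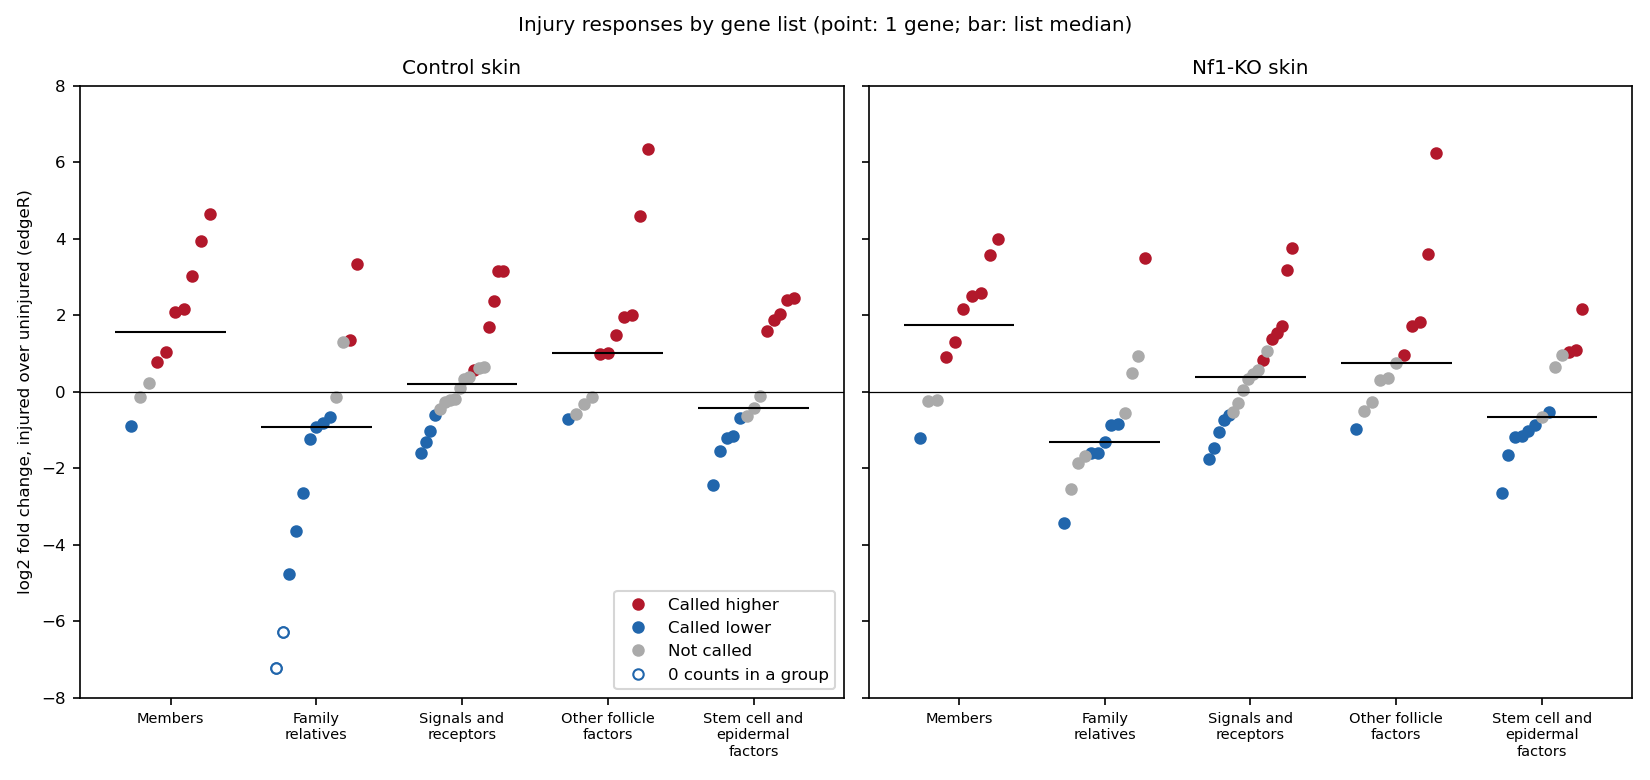
log2 fold change of injured over uninjured skin for the genes of 5 lists in control (left) and Nf1-KO skin (right), 1 point per gene that passed the filter, with bars at list medians. Points are red where called higher, blue where called lower and grey where not called, and open points mark Gata4 and Gata5, whose fitted values against 0 counts in control injured skin are no estimate of size. The bars of the members, at 1.56 and 1.74, are the highest of the 5 lists in both panels.

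Genes with the most similar profile were found for each factor by the root mean square difference of log2 CPM over the 12 libraries, each gene centred on its own mean, among 13693 genes. For Msx1 these were Aldh1a3, which makes retinoic acid, at 0.41, Tspan10 at 0.46 and the neuropeptide gene Npy at 0.51. For Msx2 they were Lpcat4 at 0.36, Dlx4 at 0.38 and Cybrd1 at 0.39. Dlx1 was nearest to Begain at 0.26, Dlx2 to Tmem229b at 0.31 and Dlx3 to Mark1 at 0.25. The nearest genes of Foxn1 were Sgo1, a protector of centromere cohesion in dividing cells, at 0.20, Baz1a at 0.21 and Dcbld1 at 0.22, and that of Cux1 was Uhrf1, the maintenance factor of DNA methylation at replication, at 0.12. Foxq1 was nearest to Plekha7 at 0.19, Ovol1 to Acp7 and Gata3 to Sh3rf2 at 0.13. Within the 10 factors the closest pairs were Foxn1 with Cux1 at 0.26, Foxq1 with Ovol1 at 0.36 and Dlx1 with Dlx2 at 0.42. All profiles share the same 12 libraries and their split into injured and uninjured skin.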

How the data were processed

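Whole-skin RNA was isolated with a fibrous tissue kit and 10 ng entered Smart-Seq V4 and Nextera XT library preparation, per the labels' protocols, which does not mark strand. The submitters' processing notes name STAR 2.5.2b, SAMtools, HTSeq 0.5.3, DESeq2, HOMER and mm10; no annotation release and no strand option is given in the sources used here. The deposited values are whole-number read counts per Ensembl gene ID, of which 53274 of 53379 matched GENCODE M21. Columns repeated between tables were equal, and 1 column of no listed sample was not used.

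Counts were fitted with edgeR 4.0.16 (R 4.3.3, TMM scaling, filter at a count minimum of 10, robust quasi-likelihood, 1 mean per group, all 12 libraries). P-values were adjusted by Benjamini-Hochberg over 23635 genes and called under 0.05; standard errors are the absolute log2 fold change over the square root of F. Alternatives were DESeq2 1.42.0, limma 3.58.1 (voom), median-of-ratios scaling, no filter and a filter of 2 CPM in 3 libraries, a replicate block, the groups of a contrast alone, background subtraction, a ribosomal RNA-like covariate, and libraries left out. Background is the count per kb over 1454 olfactory and vomeronasal receptor genes. Totals of 8817013 to 16809687 counts set the counting precision.

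The members and lists were chosen with earlier results of these data known. Text names the 10 members, Nf1 and Prss56, and up to 3 called genes of smallest p per list and contrast. Of the nearest profiles (genes at a mean of 2 CPM or more) it names 3 for Msx1, Msx2 and Foxn1 and only the nearest for the other members. Overlapping genes and others were chosen after their values were seen. Levels per kb use all annotated exons.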

Additional observations from a re-analysis of the deposited data

How the results depend on the processing

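The number of factors called was 8 of 10 with injury in each genotype under every alternative except the fit without control uninjured libraries 1 and 2, where it was 4 in control skin. It was 0 for both genotype comparisons and for the difference between the injury responses under every alternative run. The 7 rising factors and Gata3 kept their direction with injury throughout, with Msx1 from 4.32 to 6.11 and Gata3 from -1.04 to -0.69 on the log2 scale in control skin. Replicate numbers were not treated as pairs: correlations of same-numbered libraries ran from -0.18 to 0.43, 5 of 18 were over 0.1, and 4 of 12 libraries correlated best with their own number. With the replicate block 8, 8, 0, 0 and 0 factors were called in the 5 comparisons. The groups of a contrast alone were not run for the difference between responses, which uses all groups.

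Signs changed only for log2 values that were never called. With injury these were Foxq1 in control skin with no filter (0.0580), Ovol1 in control skin without control uninjured libraries 1 and 2 (-0.0392) and Ovol1 in Nf1-KO skin with the ribosomal covariate (0.0195). Between genotypes in uninjured skin, median-of-ratios scaling gave -0.0179 for Foxn1, -0.0144 for Dlx1, -0.0348 for Dlx3, -0.0281 for Gata3 and -0.0267 for Cux1. The 2 CPM filter gave -0.0171, -0.0106, -0.0372, -0.0349 and -0.0255, and DESeq2 gave -0.0137, -0.0112, -0.0303, -0.0227 and -0.0231, in the same order. Background subtraction gave -0.0297 for Foxn1, -0.0549 for Dlx3, -0.0592 for Gata3 and -0.0294 for Cux1, and limma voom -0.24 for Dlx1. Without control uninjured libraries 1 and 2, Foxn1 was -0.125, Dlx1 -0.0900, Dlx3 -0.0968, Ovol1 -0.130 and Cux1 -0.190. The difference between responses was -0.66 for Dlx1 after background subtraction, and for Dlx3 -0.0291 with no filter and -0.0635 with the ribosomal covariate. The cause was not tested.

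Leaving out 1 library at a time moved Foxq1 with injury from -0.331 to 0.129 in control and from -0.438 to 0.028 in Nf1-KO skin, and Ovol1 in Nf1-KO skin from -0.550 to 0.0020. In uninjured skin the genotype value ran from -0.0639 to 0.174 for Foxn1, -0.855 to 0.348 for Dlx1, -0.160 to 0.0929 for Dlx3, -0.0689 to 0.128 for Gata3 and -0.169 to 0.148 for Cux1. In injured skin it ran from -0.234 to 0.258 for Msx1, -0.0884 to 0.378 for Msx2, -0.037 to 0.471 for Foxq1 and -0.235 to 0.328 for Dlx3. The difference between responses ran from -0.339 to 0.141 for Foxq1, -0.0325 to 1.251 for Dlx1, -0.795 to 0.386 for Dlx2, -0.233 to 0.329 for Dlx3 and -0.0509 to 0.239 for Cux1.

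Calls over all genes moved more. In Nf1-KO skin 37.4% were called with injury, but 24.6% with the ribosomal covariate, 22.5% without Nf1-KO uninjured library 2 and 24.3% without Nf1-KO injured library 1. Without a filter 19318 and 10462 genes were called with injury in control and Nf1-KO skin, in place of 13072 and 8851. The share of injury calls that were higher was 41.3% and 50.9%, and 29.8% and 39.7% with DESeq2. The 7 genotype calls in uninjured skin were 219 with no filter and 60 with DESeq2; in injured skin 0 became 410 and 124, and for the difference between responses 236 and 37. Median-of-ratios scaling moved the median of all genes in Nf1-KO skin from -0.09 to -0.20. Counts of Msx1, Dlx1 and Dlx2 in uninjured skin were few, at 6 to 64 per library.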
